A study of Mus musculus with 20 samples.

Results

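The genes described here are 41 that make up the glutathione and NRF2 antioxidant system of the mouse liver. They are 21 glutathione transferases, the enzymes that make and recycle glutathione, the glutathione peroxidases, and other peroxide and superoxide enzymes. The rest are 4 enzymes grouped here as reporters of NRF2, and NRF2 itself with 2 of its regulators. All 41 genes were chosen by symbol from a list, with no measured value in the rule, out of 54532 genes in the count table. All 41 were found and all 41 reached a level of 2 in at least 3 mice as CPM, counts scaled to a library of standard size, the filter that left 12289 genes to test.

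Liver RNA came from male C57BL/6 mice that had become obese over 12 weeks of high-fat feeding (HFD), were then given Roux-en-Y gastric bypass (RYGB) or a sham operation, and were kept for 8 weeks on chow or on HFD. The 4 groups are named by operation and diet (Sham Chow, Sham HFD and their RYGB counterparts RYGB Chow and RYGB HFD), each of 5 mice and 5 libraries. All mice therefore had an operation and earlier HFD, and the 2 chow groups had been moved off it. Per the study's methods the Sham HFD mice were the heavier ones, so body weight and group cannot be told apart wherever Sham HFD enters. Libraries held 14604854 to 22537498 counts (median 19056997), and no columns were identical. Adipocyte, pancreatic, gut and kidney markers stayed at or below 198 CPM summed per list, against 75514 to 114475 CPM for the 6 hepatocyte markers. Whole livers were sequenced, so fewer cells of a type and less RNA per cell cannot be told apart.

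Glutathione is a small thiol made in the cytosol by glutamate-cysteine ligase and glutathione synthetase and returned to its reduced form by glutathione reductase at the cost of NADPH. Glutathione transferases join it to electrophiles such as drug metabolites and lipid peroxidation products, and glutathione peroxidases use it to reduce peroxides. NRF2 (gene *Nfe2l2*) is a transcription factor that KEAP1 marks for degradation until oxidants or electrophiles modify KEAP1. Freed NRF2 binds antioxidant response elements with a small MAF protein and raises many of the genes named here. NRF2 is governed mostly at the protein level, and protein was not measured.

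Fold changes below are log2 values of the second group named over the first, with their standard errors (SE). Adjusted p-values are those of edgeR's quasi-likelihood test, two-sided, with Benjamini-Hochberg adjustment over all 12289 genes. Each SE was computed back from that test, as the size of the fold change over the square root of the F statistic. A gene is said to have passed, risen or fallen when its adjusted p-value was under 0.05. Comparisons that share a group of mice are not independent of each other. The 2 diet comparisons share no mice with each other, and their difference was tested as the surgery by diet interaction.

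The system did not move as one block. On chow, none of the 41 genes passed between sham and RYGB mice. On HFD, 21 of the 41 were lower in RYGB than in sham mice and 1 was higher. From chow to HFD, 10 fell and 5 rose in sham mice, whereas 18 fell and 0 rose in RYGB mice. The interaction passed for 9 genes, all with a more negative diet change after RYGB: *Gsta1*, *Gstm1*, *Gstm2*, *Gstm3*, *Gstm4*, *Mgst3*, *Nqo1*, *Srxn1* and *Ephx1*.

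These counts stand against a background of all tested genes. In Sham HFD vs. RYGB HFD, 7.9% of all genes were lower and 8.54% higher in RYGB HFD, against 51.2% and 2.44% of the 41. In RYGB Chow vs. RYGB HFD, 1.65% of all genes were lower and 1.99% higher on HFD, against 43.9% and 0% of the 41. In Sham Chow vs. Sham HFD the background was 10.7% lower and 10.9% higher, against 24.4% and 12.2%. With library size alone as the scale, the sham diet split was 8 lower and 9 higher in place of 10 and 5. For the interaction the background was 2.58% negative and 2.48% positive, against 22% and 0%. In Sham Chow vs. RYGB Chow, 0.00814% of all genes were lower and 0.0488% higher after adjustment.

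The median log2 fold change of the 41 was -0.35 with surgery on HFD, -0.30 with diet in RYGB mice, 0.01 with diet in sham mice and -0.10 with surgery on chow. Over all genes these medians lay between 0.00 and 0.01. Below 0 lay 35 of the 41 in each of the first 2 comparisons, 20 in the third and 32 in the fourth. By sign, the 41 thus lay mostly below 0 in both comparisons with RYGB HFD and also with surgery on chow. With diet in sham mice the signs were evenly split, although 10 genes fell and 5 rose there.

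**Figure D1:**
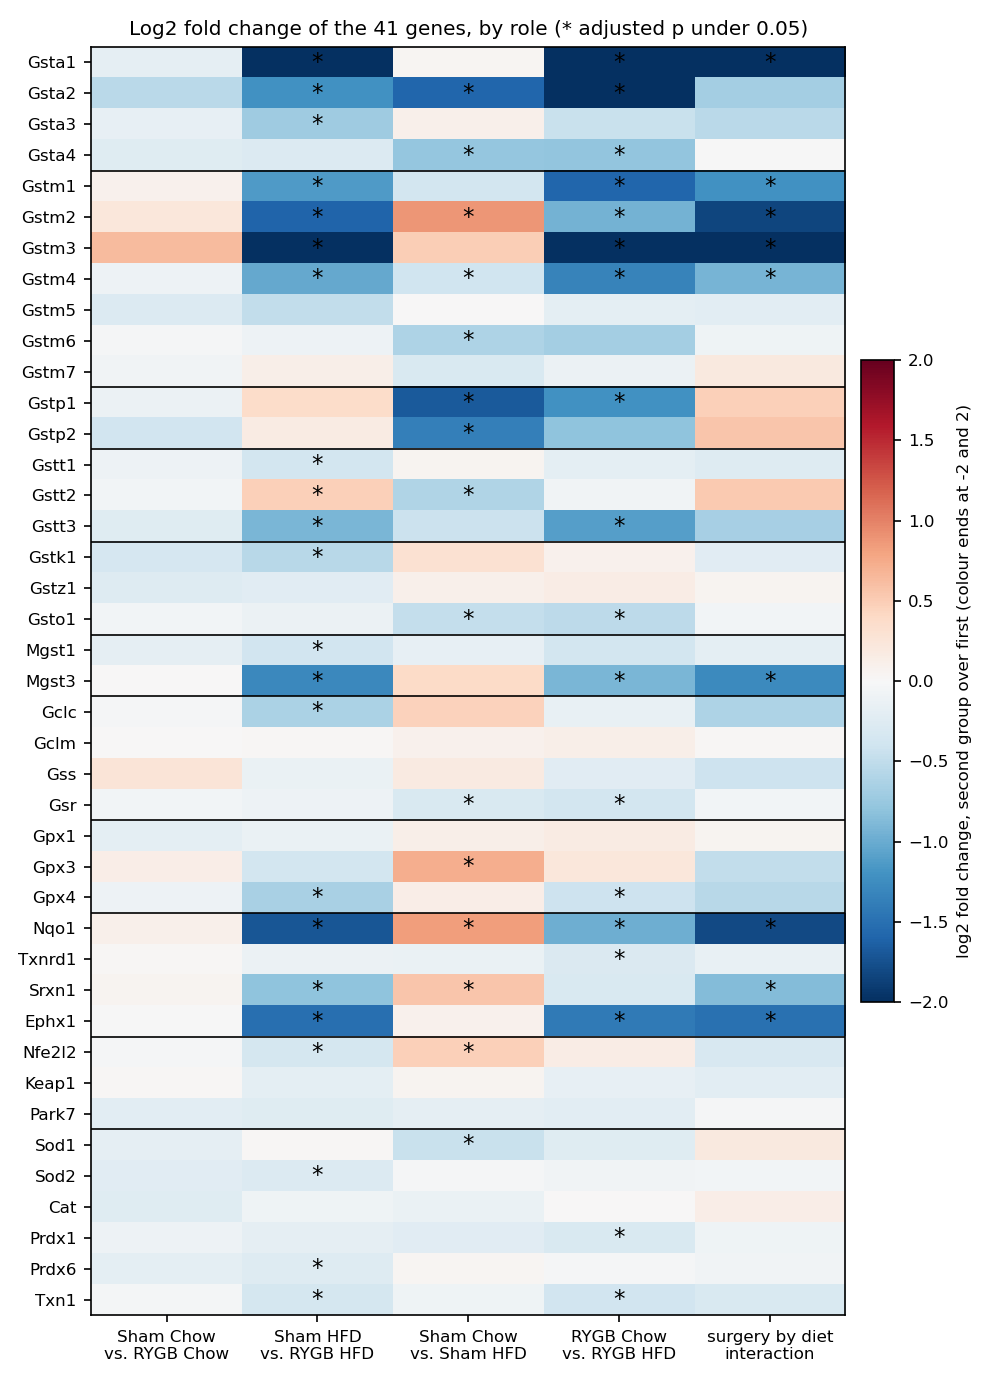
Log2 fold change of each of the 41 genes (rows, ordered by role and separated by lines) in the 4 comparisons and the surgery by diet interaction (columns), on a colour scale that ends at -2 and 2. Stars mark an adjusted p-value under 0.05: there are 22 in Sham HFD vs. RYGB HFD, 18 in RYGB Chow vs. RYGB HFD, 15 for diet in sham mice, 9 in the interaction and 0 in Sham Chow vs. RYGB Chow.

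**Figure D2:**
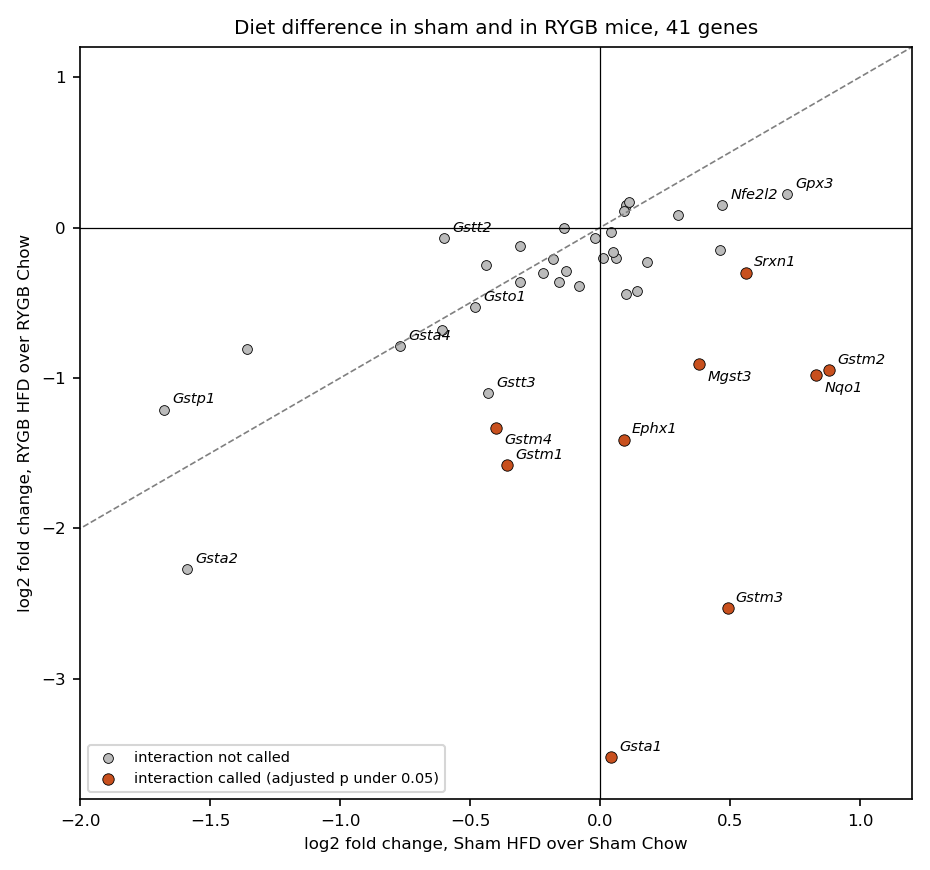
Log2 fold change from chow to HFD in sham mice (horizontal) and in RYGB mice (vertical) for the 41 genes, 1 point per gene, with a dashed line where both are equal. The 9 genes whose interaction passed (orange) all lie below the line, and *Gstp1* and *Gsta2* lie far to the left, lower on HFD after either operation.

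Some libraries stood at the ends of their group for many of these genes, which bears on RYGB Chow above all. RYGB Chow replicate 5 had the highest CPM of its group for 32 of the 41 genes and RYGB Chow replicate 3 the lowest for 18. Over all genes these 2 libraries also had the lowest correlation with the rest of their group (Pearson r across genes 0.9791 and 0.9787, against 0.9849 to 0.9925 for the other 18 libraries). In RYGB Chow vs. RYGB HFD, 11 of the 41 passed in place of 18 without RYGB Chow replicate 5, and also 11 without RYGB HFD replicate 4.

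Levels are compared between genes per length, as CPM for each kilobase of exon (RPKM). The length is that of all annotated exons of a gene together, so ranks and sums depend on the annotation. *Gsta3*, for example, has 4344 bases and *Gstm1* 1473, and in Sham Chow they were at 1513 and 1788 CPM. The most abundant messages in Sham Chow were *Mgst1* (1394 ± 128 RPKM, mean ± SD, n = 5), a transferase of the endoplasmic reticulum and outer mitochondrial membrane, *Cat* (1302 ± 23.9), which encodes catalase, *Gpx1* (1279 ± 141), the main cytosolic glutathione peroxidase, and *Gstm1* (1214 ± 265). Within these 4, the gap from one gene to the next was smaller than the larger of their SDs, so their order is not set by these mice. *Gstp1* followed at 645 ± 93.5 and *Gsta3* at 348 ± 20.4. At the other end lay *Nqo1* (4.58 ± 1.03), *Gstp2* (2.4 ± 1.79) and *Gpx3* (2.05 ± 0.368).

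The summed level of the 19 soluble transferases was 3066 ± 281 RPKM in Sham Chow and 2998 ± 490 in RYGB Chow, and on HFD 2340 ± 108 after sham and 1493 ± 73.4 after RYGB (mean ± SD, n = 5 each). By mouse the sum ran from 2661 to 3333 in Sham Chow and from 2581 to 3778 in RYGB Chow. On HFD it ran from 2254 to 2501 in sham mice and from 1410 to 1604 in RYGB mice, so that the 2 HFD groups overlapped neither each other nor the chow groups. The single gene *Gstm1* made up 39.6% of the sum in Sham Chow and 28.9% in RYGB HFD. The sums and this share depend on the exon lengths used. The mu class summed to 1456 RPKM in Sham Chow and 558 in RYGB HFD and the pi class to 648 and 259, while the kappa, zeta and omega genes together stood at 282 and 239.

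**Figure D3:**
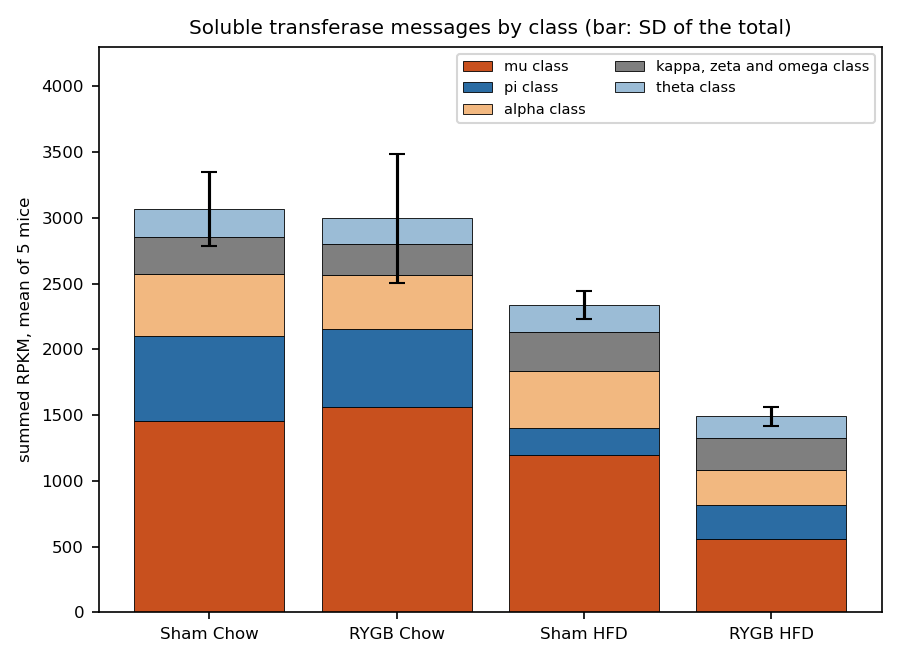
Summed RPKM of the 19 soluble transferases, stacked by class, as the mean of 5 mice per group, with the SD of the total as the error bar. The mu class (bottom) is smallest in RYGB HFD at 558 RPKM and the pi class is small in both HFD groups (203 and 259 RPKM, against 648 and 600 on chow).

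Of the 7 mu class transferases, 4 fell in Sham HFD vs. RYGB HFD and the other 3, *Gstm5*, *Gstm6* and *Gstm7*, did not pass. Mu class enzymes conjugate aromatic epoxides and other hydrophobic electrophiles. The 7 genes lie side by side over 149 kb of chromosome 3 (107895821 to 108044894, GRCm38), in the order *Gstm5*, *Gstm7*, *Gstm6*, *Gstm3*, *Gstm2*, *Gstm1* and *Gstm4*. The 4 that fell are thus neighbours at one end of the cluster, and the 3 that did not pass are neighbours at the other.

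On chow, *Gstm1* measured 1232, 2259, 1591, 1950.4 and 1908 CPM in the 5 sham mice and 1900.2, 1895, 1808, 1439 and 2422 in the 5 RYGB mice. On HFD, *Gstm1* measured 1303, 1354, 1495, 1312 and 1489 CPM after sham and 560, 612, 614, 636 and 752 after RYGB. The highest RYGB HFD mouse, at 752 CPM, lay below the lowest of the other 15, at 1232. *Gstm1* fell by 1.13 ± 0.14 on the log2 scale between the HFD groups (adjusted p = 1.85e-05) and by 1.58 ± 0.14 in RYGB Chow vs. RYGB HFD (adjusted p = 1.28e-06). In Sham Chow vs. Sham HFD the value was -0.36 ± 0.14, adjusted p = 0.0641, and the interaction was -1.21 ± 0.20, adjusted p = 0.00159.

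On chow, *Gstm3* measured 75.4, 67.9, 73.3, 91 and 85.9 CPM in the 5 sham mice and 137, 135, 53.5, 68.1 and 214 in the 5 RYGB mice. On HFD, *Gstm3* measured 76.3, 116, 135, 64.2 and 160 CPM after sham and 17.9, 19.8, 17.5, 21.5 and 28.6 after RYGB. RYGB HFD was low in every mouse, and RYGB Chow was the most scattered group. *Gstm3* was 5.24-fold lower in RYGB HFD than Sham HFD (-2.39 ± 0.31, adjusted p = 2.71e-05) and 5.78-fold lower than in RYGB Chow (-2.53 ± 0.31, adjusted p = 6e-05). Its interaction (-3.02 ± 0.42, adjusted p = 0.000369) had the smallest p-value among the 41 genes.

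On chow, *Gstm2* measured 59.5, 49.8, 46.6, 68.9 and 63.4 CPM in the 5 sham mice and 75.5, 74.4, 33.7, 54.6 and 101 in the 5 RYGB mice. On HFD, *Gstm2* measured 75.3, 105, 105, 112 and 131 CPM after sham and 37.8, 37.5, 32.7, 29.9 and 36.7 after RYGB. *Gstm2* rose on HFD in sham mice (0.88 ± 0.20, adjusted p = 0.00403), with no overlap between the groups, and fell on HFD in RYGB mice (-0.95 ± 0.20, adjusted p = 0.0119, not in the fit of 2 groups). Between the 2 HFD groups it was 3.02-fold lower after RYGB (-1.60 ± 0.20, adjusted p = 2.71e-05), and the interaction was -1.83 ± 0.28, adjusted p = 0.00118.

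On chow, *Gstm4* measured 65.8, 88, 74.6, 86.2 and 73.8 CPM in the 5 sham mice and 75.9, 71.9, 69.9, 52.3 and 93.6 in the 5 RYGB mice. On HFD, *Gstm4* measured 51.2, 60.6, 67.2, 49.2 and 65.7 CPM after sham and 25.4, 30.6, 33.2, 25.6 and 29.4 after RYGB. *Gstm4* fell in Sham HFD vs. RYGB HFD (-1.03 ± 0.13, adjusted p = 2.54e-05), in RYGB Chow vs. RYGB HFD (-1.33 ± 0.13, adjusted p = 5.3e-06) and, less, in Sham Chow vs. Sham HFD (-0.40 ± 0.13, adjusted p = 0.0297). The last call was lost when any of 4 sham mice was left out and with library size alone as the scale. The interaction was -0.93 ± 0.18, adjusted p = 0.00612. *Gstm6* fell in sham mice on HFD (-0.61 ± 0.19, adjusted p = 0.0279), a call that 5 of the 20 mice left out singly removed, and in RYGB mice diet gave -0.68 ± 0.19, adjusted p = 0.0507. *Gstm5* and *Gstm7* passed in no comparison, with group means from 5.43 to 7.62 CPM for *Gstm5* and from 50.6 to 62.8 for *Gstm7*. *Gstm5* overlaps an antisense gene with a median of 37 counts against its own 115.

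**Figure D4:**
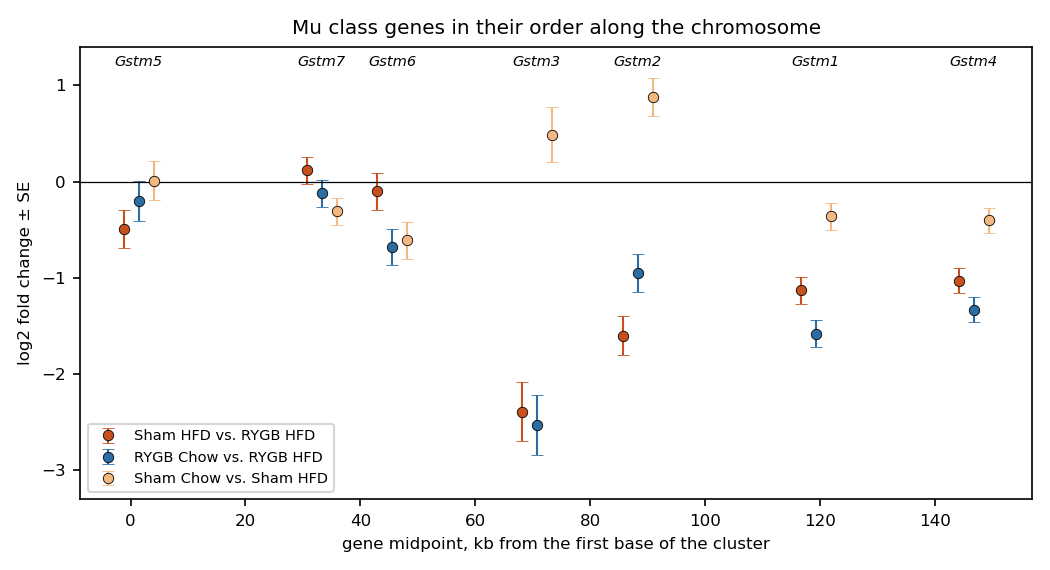
Log2 fold change ± SE of the 7 mu class genes (vertical) against the distance of the gene's midpoint from the first base of the cluster in kb (horizontal), for 3 comparisons that differ in colour. *Gstm3*, *Gstm2*, *Gstm1* and *Gstm4* lie at -0.95 or below in both comparisons with RYGB HFD, while *Gstm5* and *Gstm7* lie between -0.49 and 0.12 there and *Gstm6* lies at -0.10 with surgery and -0.68 with diet in RYGB mice.

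Of the 4 alpha class genes, 3 fell in Sham HFD vs. RYGB HFD. Alpha class enzymes reduce lipid hydroperoxides, and GSTA4 conjugates hydroxynonenal, a product of lipid peroxidation. On chow, *Gsta2* measured 68.5, 55, 47.4, 67.6 and 61.3 CPM in the 5 sham mice and 44.6, 50.6, 27.9, 24.8 and 59 in the 5 RYGB mice. On HFD, *Gsta2* measured 18.1, 14.3, 24.5, 26.2 and 16.3 CPM after sham and 9.14, 6.77, 6.46, 9.11 and 11.5 after RYGB. *Gsta2* fell on HFD in sham (-1.59 ± 0.22, adjusted p = 4.96e-05) and in RYGB mice (-2.27 ± 0.23, adjusted p = 8.23e-06), and fell further from Sham HFD to RYGB HFD (-1.21 ± 0.23, adjusted p = 0.00111). The interaction did not pass (-0.68 ± 0.31, adjusted p = 0.219).

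On chow, *Gsta4* measured 72.7, 81.9, 68, 88 and 89.8 CPM in the 5 sham mice and 71, 70.4, 47, 57.2 and 90.2 in the 5 RYGB mice. On HFD, *Gsta4* measured 42.7, 51.1, 49.8, 47.5 and 43.1 CPM after sham and 31.6, 37.2, 45.8, 36.3 and 44 after RYGB. *Gsta4* was lower on HFD in sham (-0.77 ± 0.14, adjusted p = 0.000525) and RYGB mice (-0.79 ± 0.14, adjusted p = 0.00254) with no overlap between diets in either, while surgery on HFD gave -0.27 ± 0.14, adjusted p = 0.197. *Gsta3*, the most abundant alpha message, passed in Sham HFD vs. RYGB HFD and in no other comparison (-0.71 ± 0.13, adjusted p = 0.000739), from 1620.5 ± 148 to 994 ± 136 CPM.

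On chow, *Gsta1* measured 5.75, 5.95, 6.11, 4.85 and 4.67 CPM in the 5 sham mice and 5.07, 6.52, 1.26, 2.93 and 8.43 in the 5 RYGB mice. On HFD, *Gsta1* measured 2.43, 7.35, 6.8, 4.91 and 6.45 CPM after sham and 0.653, 0, 1.04, 0 and 0.399 after RYGB. In RYGB HFD 2 mice had 0 counts of *Gsta1* and the others 12, 18 and 6, so that its fitted fold changes (-3.73 ± 0.59 in Sham HFD vs. RYGB HFD, -3.52 ± 0.59 in RYGB Chow vs. RYGB HFD) depend on the prior count. Both passed (adjusted p = 0.000187 and 0.00164), as did the interaction (-3.55 ± 0.75, adjusted p = 0.00885). Of the 150-base stretches of *Gsta1* transcripts, 68.4% also occur in *Gsta2*, *Gm3776* or *Gm10639*, so its reads are shared ground between genes. With *Gsta1* and *Gsta2* summed, surgery on HFD gave -1.50 ± 0.22 (adjusted p = 0.000109) and the interaction no longer passed (-1.0 ± 0.30, adjusted p = 0.0582). With all 4 copies summed, a choice made after seeing the data, the interaction passed (-1.13 ± 0.30, adjusted p = 0.0333).

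Of the 2 pi class genes, *Gstp1* fell on HFD after both operations, *Gstp2* passed in sham mice alone, and neither passed with surgery. GSTP1 is the transferase best known from its rise in liver tumours, and mouse liver carries a second, minor copy, *Gstp2*. On chow, *Gstp1* measured 1072, 970, 1050.5, 764 and 1139 CPM in the 5 sham mice and 580, 1083, 1011, 983 and 973 in the 5 RYGB mice. On HFD, *Gstp1* measured 421, 302, 312, 272 and 252 CPM after sham and 338, 285, 396, 605 and 374 after RYGB. All 5 Sham HFD mice lay below all chow mice, and in RYGB mice only RYGB Chow replicate 1 and RYGB HFD replicate 4 overlapped. *Gstp1* was 3.2-fold lower on HFD in sham mice (-1.68 ± 0.19, adjusted p = 7.71e-06) and 2.32-fold lower in RYGB mice (-1.21 ± 0.19, adjusted p = 0.00086). Neither surgery comparison passed (0.36 ± 0.19, adjusted p = 0.205 on HFD), and neither did the interaction (0.47 ± 0.26, adjusted p = 0.326). *Gstp2*, at group means of 1.07 to 2.67 CPM, fell in sham mice on HFD (-1.36 ± 0.43, adjusted p = 0.0275), and in RYGB mice diet gave -0.81 ± 0.43, adjusted p = 0.325. The call in sham mice was lost in the fit of 2 groups, without any of 4 Sham HFD mice and without Sham Chow replicate 3 (-0.77, adjusted p = 0.161). *Gstp1* shares 17.6% of its 150-base stretches with other genes, among them the pseudogene *Gstp-ps*, which was at 111 CPM in Sham Chow and 33.4 in Sham HFD. The sum of *Gstp1* and *Gstp2* gave -1.68 ± 0.19 in sham mice (adjusted p = 7.9e-06).

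Theta class enzymes act on small alkyl halides and sulfates. *Gstt2* was the 1 gene of the 41 that was higher in RYGB HFD than Sham HFD (0.48 ± 0.14, adjusted p = 0.0239): its CPM was 64.1, 75.8, 65.8, 60.8 and 67.4 in Sham HFD and 88.6, 111, 86.9, 100 and 78.6 in RYGB HFD. It had fallen on HFD in sham mice (-0.60 ± 0.14, adjusted p = 0.00494), from 101 ± 26 in Sham Chow, and in RYGB Chow it stood at 97.9 ± 16.1. The rise was lost without any of 4 HFD mice and with library size alone. *Gstt3* fell with surgery on HFD (-0.92 ± 0.26, adjusted p = 0.0196) and with diet in RYGB mice (-1.10 ± 0.26, adjusted p = 0.0248), the former not without RYGB HFD replicate 5 (-0.85, adjusted p = 0.0515) and the latter not with limma-voom, the replicate block or the fit of 2 groups or when any of 5 RYGB mice was left out. *Gstt1* fell by 0.36 between the HFD groups (adjusted p = 0.0453), a call that 11 of the 20 mice left out singly removed.

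Among the single genes of the kappa, zeta and omega classes, GSTK1 is a mitochondrial and peroxisomal enzyme and GSTZ1 isomerizes maleylacetoacetate in tyrosine breakdown. On chow, *Gstk1* measured 111, 131, 113, 135 and 142 CPM in the 5 sham mice and 111, 100, 66, 105 and 118 in the 5 RYGB mice. On HFD, *Gstk1* measured 159, 141, 156, 157 and 165 CPM after sham and 106, 105, 105, 117 and 97.6 after RYGB. RYGB mice were lower on HFD with no overlap (-0.55 ± 0.11, adjusted p = 0.00211), and on chow the difference did not pass (-0.34 ± 0.11, adjusted p = 0.281). On chow, *Gstz1* measured 728, 645, 731, 771 and 758 CPM in the 5 sham mice and 626, 618, 432, 609 and 747 in the 5 RYGB mice. On HFD, *Gstz1* measured 808, 739, 742, 806 and 807 CPM after sham and 698, 639, 743, 665 and 617 after RYGB. The 2 HFD groups differed by a log2 fold change of -0.22 ± 0.10, adjusted p = 0.156, and the 2 chow groups by -0.26 ± 0.10, adjusted p = 0.348, so *Gstz1* passed in no comparison of the main fit. Its difference on HFD passed with library size alone, in the fit of 2 groups and without RYGB Chow replicate 3.

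On chow, *Gsto1* measured 110, 106, 95.5, 116 and 110 CPM in the 5 sham mice and 79.7, 106, 103, 101 and 124 in the 5 RYGB mice. On HFD, *Gsto1* measured 81.7, 78.8, 74.5, 76.7 and 71.9 CPM after sham and 71.7, 68.6, 72, 70.6 and 72.2 after RYGB. GSTO1 is a thioltransferase and dehydroascorbate reductase. *Gsto1* fell on HFD after sham (-0.48 ± 0.09, adjusted p = 0.000496) and RYGB (-0.53 ± 0.09, adjusted p = 0.00101), with no overlap between diets in either, and the interaction was -0.05 ± 0.12, adjusted p = 0.856.

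The microsomal transferases *Mgst1* and *Mgst3* were both lower in RYGB HFD than Sham HFD, *Mgst1* at 1927 ± 127 against 2504 ± 61.1 CPM (-0.38 ± 0.11, adjusted p = 0.0253, but -0.34, adjusted p = 0.0676, without RYGB HFD replicate 5) and *Mgst3* at 10.2 ± 1.51 against 25 ± 6.17 (-1.29 ± 0.22, adjusted p = 0.000513). *Mgst3* fell on HFD in RYGB mice as well (-0.91 ± 0.23, adjusted p = 0.0296, a call lost with limma-voom and when any of 5 RYGB mice was left out), and its interaction was -1.28 ± 0.31, adjusted p = 0.0212.

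The 4 enzymes grouped here as reporters of NRF2 did not share 1 pattern. *Gclc* and *Gclm*, also usual reporters, are described below with glutathione synthesis. Of these, *Gclc* fell in Sham HFD vs. RYGB HFD and *Gclm* passed in no comparison. *Nqo1*, a quinone reductase, *Srxn1*, which repairs overoxidized peroxiredoxins, and *Ephx1*, the microsomal epoxide hydrolase, fell in Sham HFD vs. RYGB HFD, whereas *Txnrd1*, the cytosolic thioredoxin reductase, did not pass there.

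On chow, *Nqo1* measured 9.61, 7.24, 7.17, 6.21 and 5.33 CPM in the 5 sham mice and 7.19, 6.3, 6.54, 5.72 and 12.6 in the 5 RYGB mice. On HFD, *Nqo1* measured 14, 13.8, 9.88, 11.9 and 13.9 CPM after sham and 4.52, 4.06, 4.38, 1.83 and 4.52 after RYGB. Sham HFD was the highest group and RYGB HFD the lowest, and their mice overlapped no other group's except that Sham HFD replicates 3 and 4 lay below RYGB Chow replicate 5. *Nqo1* was 1.78-fold higher on HFD in sham mice (0.83 ± 0.22, adjusted p = 0.0124), 1.98-fold lower on HFD in RYGB mice (-0.98 ± 0.24, adjusted p = 0.0246) and 3.28-fold lower in RYGB HFD than Sham HFD (-1.71 ± 0.23, adjusted p = 4.85e-05). The interaction was -1.81 ± 0.33, adjusted p = 0.00317. The fall in RYGB mice lost its call without RYGB Chow replicate 5 (-0.74, adjusted p = 0.0662), without RYGB HFD replicate 4 and in the fit of 2 groups.

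On chow, *Srxn1* measured 49.7, 55.2, 45.4, 45.4 and 42.4 CPM in the 5 sham mice and 38, 37.8, 60.3, 50.5 and 60.9 in the 5 RYGB mice. On HFD, *Srxn1* measured 66.2, 68.8, 82.1, 66.7 and 68.1 CPM after sham and 37.7, 43.2, 46.5, 35.6 and 38.1 after RYGB. All Sham HFD mice lay above all others, and the other 3 groups overlapped. *Srxn1* rose on HFD in sham mice (0.56 ± 0.12, adjusted p = 0.00329) and was lower in RYGB HFD than Sham HFD (-0.81 ± 0.13, adjusted p = 0.00017), and RYGB Chow vs. RYGB HFD gave -0.30 ± 0.13, adjusted p = 0.199. The interaction was -0.86 ± 0.18, adjusted p = 0.008.

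On chow, *Ephx1* measured 432, 667, 374, 458 and 428 CPM in the 5 sham mice and 345, 413, 713, 367 and 505 in the 5 RYGB mice. On HFD, *Ephx1* measured 513, 444, 583, 502 and 467 CPM after sham and 209, 170, 179, 148 and 175 after RYGB. The 5 RYGB HFD mice, at 148 to 209 CPM, lay below all other mice, while the other 3 groups overlapped. *Ephx1* had the smallest p-value of the 41 in Sham HFD vs. RYGB HFD, 2.85-fold lower (-1.51 ± 0.17, adjusted p = 9.45e-06), and was 2.66-fold lower in RYGB HFD than in RYGB Chow (-1.41 ± 0.17, adjusted p = 6.49e-05). In sham mice diet gave 0.09 ± 0.17, adjusted p = 0.741, and the interaction was -1.50 ± 0.24, adjusted p = 0.00175. *Ephx1* lies on chromosome 1 from 180976210 to 181020904.

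On chow, *Txnrd1* measured 169, 175, 156, 151 and 149 CPM in the 5 sham mice and 146, 149, 176, 182 and 163 in the 5 RYGB mice. On HFD, *Txnrd1* measured 139, 141, 147, 156 and 147 CPM after sham and 139, 131, 144, 130 and 125 after RYGB. *Txnrd1* spanned a narrow range, from 125 to 182 CPM over all 20 mice. It fell on HFD in RYGB mice (-0.29 ± 0.07, adjusted p = 0.0314), a call lost under 4 of 8 other settings, and in sham mice diet gave -0.13 ± 0.07, adjusted p = 0.187.

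**Figure D5:**
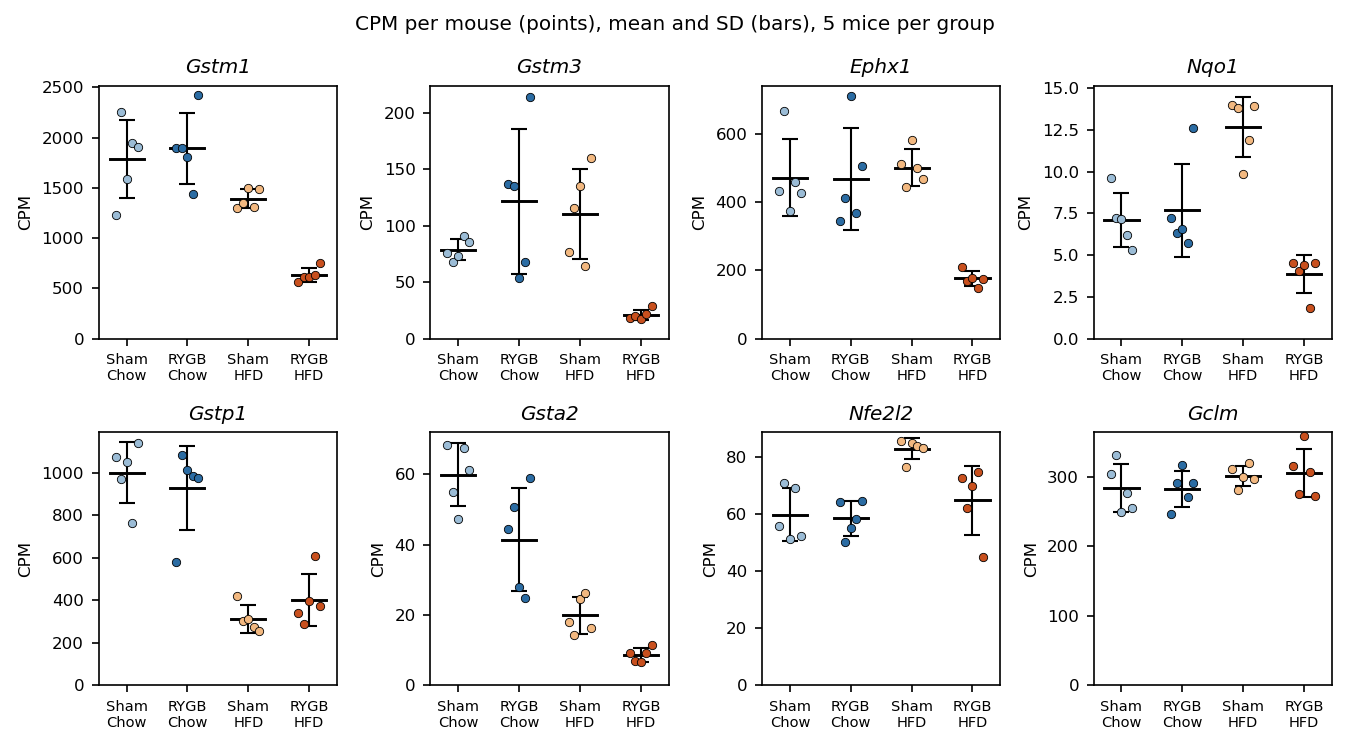
CPM of 8 genes (panels), 1 point per mouse, with the mean (line) and SD (bar) of the 5 mice of each group. *Gstm1*, *Gstm3* and *Ephx1* are low in all 5 RYGB HFD mice, *Nqo1* is high in Sham HFD and low in RYGB HFD, *Gstp1* and *Gsta2* are low on HFD after either operation, *Nfe2l2* is high in Sham HFD, and *Gclm* is level at group means of 283 to 306 CPM.

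Of the regulators, *Nfe2l2* itself was highest in Sham HFD. On chow, *Nfe2l2* measured 55.8, 70.7, 51, 68.8 and 52.1 CPM in the 5 sham mice and 64, 50, 55, 58.1 and 64.5 in the 5 RYGB mice. On HFD, *Nfe2l2* measured 85.4, 76.4, 84.8, 83.8 and 83.1 CPM after sham and 72.3, 62, 69.8, 74.5 and 44.9 after RYGB. Every Sham HFD mouse lay above every mouse of the other 3 groups. *Nfe2l2* rose on HFD in sham mice (0.47 ± 0.12, adjusted p = 0.00833) and was lower in RYGB HFD than Sham HFD (-0.35 ± 0.12, adjusted p = 0.0467), a call that 11 of the 20 mice left out singly removed. The interaction did not pass (-0.32 ± 0.17, adjusted p = 0.29). The other 3 groups overlapped, with means of 59.7 CPM (Sham Chow), 58.3 (RYGB Chow) and 64.7 (RYGB HFD).

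On chow, *Keap1* measured 55.3, 58.2, 58.6, 54.3 and 48.1 CPM in the 5 sham mice and 57.1, 55.6, 58.2, 54.5 and 52.8 in the 5 RYGB mice. On HFD, *Keap1* measured 49.7, 57.2, 60.5, 56.6 and 60.7 CPM after sham and 46.9, 50.1, 53.3, 49.9 and 49.4 after RYGB. *Keap1*, whose product holds NRF2 in check, passed in no comparison, and its fold changes lay between -0.19 and 0.05. On chow, *Park7* measured 132, 130, 146, 164 and 160 CPM in the 5 sham mice and 125, 131, 94.4, 129 and 155 in the 5 RYGB mice. On HFD, *Park7* measured 118, 142, 126, 130 and 130 CPM after sham and 108, 113, 102, 109 and 114 after RYGB. *Park7* encodes DJ-1, which stabilizes NRF2. Its fold changes lay between -0.24 and -0.18, and none passed in the main fit. On HFD every RYGB mouse lay below every sham mouse for *Park7* (-0.24 ± 0.10, adjusted p = 0.101). That difference passed with library size alone, in the fit of 2 groups and without RYGB Chow replicate 3.

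NRF2 is known to bind the antioxidant response element, whose core is written TGACNNNGC, and the related AP-1 site TGANTCA is bound by several of its partners. Both were searched on either strand in the 250 bases before the start sites that RefSeq gives (GRCm38.p6), with a window found for 36 of the 41 genes. TGACNNNGC was present for 9 of the 36 (25%), against 11.5% of all 27025 genes with a window. TGANTCA was present for 5 (13.9%, against 7.82%). Either pattern was present for 33.3% of the 36 and for 18.2% of all genes with a window. Of the 9 genes whose interaction passed, *Srxn1* alone held a match, to TGANTCA, and none held TGACNNNGC in its window. The examples below were chosen to set *Srxn1* beside genes with other patterns: the pi pair, of which *Gstp1* fell on HFD after both operations, *Gclm* with no passing comparison, *Nfe2l2* itself, *Gsta3*, and *Prdx1*, where the 2 patterns overlap. Each is written along the gene's own strand with the match in capitals and 10 bases on either side. Where the match was on the opposite strand, the capitals show its reverse complement. The stretches of *Srxn1* and of the pi pair match TGANTCA, and the others match TGACNNNGC.
Srxn1, first: tcggagggccTGAGTCAccacgctgtg
Srxn1, second: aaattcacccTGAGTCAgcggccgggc
Gstp1: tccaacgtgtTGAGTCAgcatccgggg
Gstp2: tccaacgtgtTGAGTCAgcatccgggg
Gclm: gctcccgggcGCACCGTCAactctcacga
Nfe2l2: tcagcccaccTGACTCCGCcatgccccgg
Gsta3: aactcaggcaTGACATTGCatttttcttc
Prdx1: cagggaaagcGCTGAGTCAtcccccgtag
The *Srxn1* matches lie on chromosome 2 at 152105422 to 152105428 and 152105479 to 152105485 (gene on the + strand), the *Gstp1* match on chromosome 19 at 4037980 to 4037986 (gene on the - strand) and the *Gclm* match on chromosome 3 at 122245423 to 122245431 (gene on the + strand, match on the other). The *Nfe2l2* match lies on chromosome 2 at 75704895 to 75704903 (gene on the - strand). The stretches printed for *Gstp1* and *Gstp2* are identical. A match is a run of letters and no proof of binding, and its absence from this window says nothing of sites elsewhere.

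The genes that make glutathione gave a mixed picture. On chow, *Gclc* measured 360, 501, 334, 314 and 251 CPM in the 5 sham mice and 246, 359, 429, 380 and 319 in the 5 RYGB mice. On HFD, *Gclc* measured 398, 408, 546, 604 and 470 CPM after sham and 256, 252, 401, 363 and 288 after RYGB. *Gclc*, the catalytic subunit of glutamate-cysteine ligase, was lower in RYGB HFD than Sham HFD (-0.64 ± 0.18, adjusted p = 0.0181), with RYGB HFD replicate 3 above Sham HFD replicate 1, and lost its call without Sham HFD replicate 4 (-0.55, adjusted p = 0.0557). On chow, *Gclm* measured 305, 332, 250, 277 and 256 CPM in the 5 sham mice and 247, 291, 317, 271 and 291 in the 5 RYGB mice. On HFD, *Gclm* measured 312, 281, 300, 320 and 297 CPM after sham and 316, 276, 359, 307 and 273 after RYGB. *Gclm*, its modifier subunit, passed in no comparison, with fold changes of at most 0.11 in size. *Gss*, glutathione synthetase, did not pass either and overlaps *Acss2* on the opposite strand, with a median of 2836 counts against 1316. *Gsr*, glutathione reductase, fell on HFD in sham (-0.31 ± 0.08, adjusted p = 0.0107, not with library size alone) and RYGB mice (-0.36 ± 0.08, adjusted p = 0.0171).

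Among the peroxidases, GPX4 reduces lipid hydroperoxides within membranes. On chow, *Gpx4* measured 215, 338, 240, 309 and 273 CPM in the 5 sham mice and 264, 233, 242, 239 and 307 in the 5 RYGB mice. On HFD, *Gpx4* measured 248, 334, 313, 281 and 335 CPM after sham and 209, 204, 194, 183 and 173 after RYGB. *Gpx4* was lowest in RYGB HFD, below all Sham HFD mice (-0.65 ± 0.12, adjusted p = 0.000594) and all RYGB Chow mice (-0.42 ± 0.11, adjusted p = 0.0468). Of the 150-base stretches of *Gpx4*, 17.4% also occur in its pseudogene *Gpx4-ps2*. The second call was removed by 15 of the 20 mice left out singly, and the interaction was -0.55 ± 0.16, adjusted p = 0.0526. *Gpx3*, the secreted peroxidase, rose on HFD in sham mice (0.72 ± 0.19, adjusted p = 0.0119), from 3.71 ± 0.667 to 6.11 ± 0.992 CPM. *Gpx1* passed in no comparison, at group means of 1603 to 1990 CPM.

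Of the superoxide and peroxide enzymes, *Sod1* (cytosolic superoxide dismutase) passed with diet in sham mice and *Sod2* (mitochondrial) with surgery on HFD. On chow, *Sod1* measured 599, 818, 765, 827 and 849 CPM in the 5 sham mice and 660, 666, 582, 697 and 801 in the 5 RYGB mice. On HFD, *Sod1* measured 508, 557, 591, 579 and 604 CPM after sham and 590, 632, 534, 575 and 540 after RYGB. *Sod1* fell in Sham Chow vs. Sham HFD (-0.44 ± 0.10, adjusted p = 0.00264), although Sham Chow replicate 1 lay below Sham HFD replicate 5, while diet in RYGB mice gave -0.25 ± 0.09, adjusted p = 0.161 and surgery on HFD gave 0.02 ± 0.09, adjusted p = 0.928. On chow, *Sod2* measured 225, 210, 212, 244 and 232 CPM in the 5 sham mice and 184, 199, 163, 198 and 218 in the 5 RYGB mice. On HFD, *Sod2* measured 222, 218, 217, 231 and 221 CPM after sham and 199, 184, 181, 170 and 181 after RYGB. *Sod2* was lower in RYGB HFD than Sham HFD with no overlap (-0.28 ± 0.07, adjusted p = 0.0102), and on chow the difference of -0.22 ± 0.07, adjusted p = 0.265 had the smallest p-value of the 41 genes and did not pass.

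*Prdx6*, a peroxiredoxin that uses glutathione, and *Txn1*, thioredoxin, fell in Sham HFD vs. RYGB HFD (-0.26 and -0.35, adjusted p = 0.0227 and 0.0162). The *Prdx6* call was lost with no filter, without Sham HFD replicate 4 or 5, and without RYGB HFD replicate 5 (-0.23, adjusted p = 0.0618). *Txn1* and *Prdx1*, a cytosolic peroxiredoxin, fell in RYGB Chow vs. RYGB HFD (-0.39 and -0.30, adjusted p = 0.0311 and 0.0338), and these calls were removed by 5 and 6 of the 20 mice left out singly. *Cat* passed in no comparison. On chow every RYGB mouse had less *Cat* than any sham mouse (2874, 3113, 2309, 2894 and 3231 against 3491, 3404, 3317, 3382 and 3413 CPM), where the fold change was -0.24 ± 0.08, adjusted p = 0.285.

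Across the 41 genes the contrast between sham and RYGB mice on chow thus held no passing gene. Of all genes 0.00814% were lower and 0.0488% higher there, so this absence lies near those shares. At an unadjusted p-value under 0.05, 8 of the 41 were lower and 2 higher in RYGB Chow, where 5.09% and 5.7% of all genes were lower and higher by that rule. DESeq2 and limma-voom passed 0 of the 41 as well and gave 10 and 9 with an unadjusted p-value under 0.05. The largest values in size were 0.63 for *Gstm3* and -0.54 for *Gsta2*.

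Other genes of the same pathways were listed by function, with earlier results of these data known. Their counts are to be read against the shares of all genes: 7.9% lower and 8.54% higher in RYGB HFD than Sham HFD, 10.7% and 10.9% on HFD in sham mice, 1.65% and 1.99% on HFD in RYGB mice. For the interaction the shares were 2.58% negative and 2.48% positive. None of the 6 lists had a passing gene in Sham Chow vs. RYGB Chow. There 0.00814% of all genes were lower and 0.0488% higher, so this absence lies near those shares. Of 25 tested further NRF2 targets, 13 were lower and 2 higher in RYGB HFD than Sham HFD, 11 fell and 0 rose on HFD in RYGB mice, and 1 fell and 4 rose on HFD in sham mice (0 and 6 with library size alone). The interaction was negative for 11 and positive for 0. Without RYGB Chow replicate 5 or without RYGB HFD replicate 4, 6 passed in RYGB Chow vs. RYGB HFD, and 7 of the 20 mice left out singly took the interaction count to 7. *Abcc3*, an exporter of glucuronides and glutathione conjugates, was at 395 CPM in Sham HFD and 190 in RYGB HFD (-1.06 ± 0.13, adjusted p = 1.94e-05). *Ugdh*, which makes the sugar donor for glucuronidation, was at 216 and 117 CPM (-0.89 ± 0.11, adjusted p = 2.42e-05), and *Entpd5* at 491 and 270 (-0.86 ± 0.11, adjusted p = 3.71e-05). The 2 targets that were higher, *Aox3* (0.67 ± 0.14, adjusted p = 0.00242) and *Osgin1* (1.01 ± 0.29, adjusted p = 0.0187), were named after their values were seen.

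NADPH keeps glutathione and thioredoxin reduced. Of 12 tested enzymes that supply it or its precursors, 4 were lower and 1 higher in RYGB HFD than Sham HFD. *Me1*, the cytosolic malic enzyme and also a lipogenic gene, was at 359 CPM in Sham HFD and 86.8 in RYGB HFD (-2.05 ± 0.20, adjusted p = 2.27e-06), with a negative interaction (-1.88 ± 0.28, adjusted p = 0.000772). *Tkt*, of the pentose phosphate pathway, fell by 0.54 on the log2 scale (adjusted p = 0.000918), and *H6pd*, a hexose phosphate dehydrogenase of the endoplasmic reticulum, was the 1 that was higher (0.57 ± 0.11, adjusted p = 0.00128). In the diet comparisons 1 fell and 1 rose in sham mice (0 and 3 with library size alone) and 2 fell in RYGB mice, and 3 interactions were negative.

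Of 11 tested genes that supply the amino acid precursors of glutathione, 0 passed in either comparison with RYGB HFD by edgeR, and 3 fell on HFD in sham mice: *Ahcy* (-0.63 ± 0.13, adjusted p = 0.00165), *Cth* (-0.83 ± 0.23, adjusted p = 0.014) and *Gnmt* (-0.69 ± 0.21, adjusted p = 0.0199), enzymes of the methionine cycle and transsulfuration. With DESeq2, 2 of the 11 passed in RYGB Chow vs. RYGB HFD. Of 22 tested other glutathione enzymes, 3 were lower in RYGB HFD than Sham HFD and 0 higher, 3 fell and 2 rose on HFD in sham mice, and 2 fell and 1 rose in RYGB mice. In sham mice these counts lie near the shares of all genes. *Ggct*, which releases oxoproline from gamma-glutamyl peptides, rose on HFD in sham mice (1.07 ± 0.18, adjusted p = 0.000283). *Hagh*, a glyoxalase, fell in the same comparison (-0.35 ± 0.08, adjusted p = 0.00422), and *Glrx*, glutaredoxin, fell on HFD in RYGB mice (-0.71 ± 0.16, adjusted p = 0.0151).

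Of 16 further thioredoxin, peroxiredoxin and superoxide enzymes, 5 were lower and 1 higher in RYGB HFD than Sham HFD, 4 fell and 3 rose on HFD in sham mice, and 1 fell and 1 rose in RYGB mice. With library size alone these splits were 1 fallen and 5 risen in sham mice and 1 and 0 in RYGB mice. The interaction passed for 1 in each direction (3 negative and 0 positive with library size alone). *Sod3*, the extracellular dismutase, rose on HFD in sham mice (0.94 ± 0.14, adjusted p = 0.000142) and in RYGB mice (0.57 ± 0.14, adjusted p = 0.0314). *Prdx4*, of the endoplasmic reticulum, was the 1 that was higher in RYGB HFD (0.37 ± 0.08, adjusted p = 0.00382), and *Msra*, which repairs methionine sulfoxide, was lower (-0.42 ± 0.09, adjusted p = 0.00274). Of 23 tested partners and regulators of NRF2, 3 were lower and 4 higher in RYGB HFD than Sham HFD, counts near the shares of all genes, and 0 passed for the interaction (DESeq2 gave 2). On HFD in sham mice 2 of the 23 fell and 3 rose. With library size alone the 2 splits were 3 lower and 0 higher with surgery and 0 and 6 with diet. *Bach1*, which competes with NRF2 for its sites, fell on HFD in sham mice (-0.42 ± 0.10, adjusted p = 0.00424) and was higher in RYGB HFD than Sham HFD (0.38 ± 0.10, adjusted p = 0.00969). *Atf3*, a stress-induced factor at group means of 0.889 to 3.15 CPM, moved the other way (1.80 ± 0.41, adjusted p = 0.00417, and -1.51 ± 0.41, adjusted p = 0.014). *Btrc*, a ubiquitin ligase subunit that can target NRF2, rose on HFD in RYGB mice (0.44 ± 0.09, adjusted p = 0.01).

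Medians of the lists in Sham HFD vs. RYGB HFD were -0.48 for the further NRF2 targets, -0.22 for NADPH supply, -0.13 for the thioredoxin group, -0.06 for other glutathione enzymes, -0.05 for precursor supply and 0.11 for partners and regulators, beside 0.01 over all genes.

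Markers of cell types moved in some of the same comparisons. In Sham HFD vs. RYGB HFD, 5 of 6 hepatocyte markers were higher in RYGB HFD and 1, *Ttr*, was lower, the summed level running from 75514 to 88221 CPM in Sham HFD and from 99697 to 113968 in RYGB HFD. In Sham Chow vs. Sham HFD, 5 of 5 stellate and 3 of 6 Kupffer cell markers rose, with summed levels of 138 to 213 against 286 to 362 CPM and 83.8 to 243 against 226 to 314 CPM. There 3 of 6 hepatocyte markers fell (*Apoa1* -0.49, *Serpina1c* -0.72, *Hnf4a* -0.43), with a sum of 79845 to 96111 against 75514 to 88221 CPM. Of the zonal markers 3 of 6 periportal ones fell there (*Cyp2f2* -0.81, *Pck1* -1.11, *Arg1* -0.56), with a sum of 4546 to 6189 against 3101 to 3777 CPM. Of the pericentral ones *Glul* (0.86) and *Rhbg* (1.14) rose and *Cyp1a2* (-1.50) fell, with a sum of 1699 to 3502 against 2624 to 3699 CPM. Of 7 pericentral hepatocyte markers, *Glul* and *Rhbg* were lower and *Cyp1a2* higher in RYGB HFD than Sham HFD, and 0 of 6 periportal ones passed there, with sums of 2624 to 3699 against 2112 to 3177 CPM (pericentral) and 3101 to 3777 against 2976 to 5258 CPM (periportal). In RYGB Chow vs. RYGB HFD no marker of any list passed. There 1.65% of all genes were lower and 1.99% higher, so an absence of passing markers lies near those shares. *Plin4*, an adipocyte and lipid droplet gene, and *Fabp2*, an intestinal fatty acid binding protein, rose in Sham Chow vs. Sham HFD and were lower in RYGB HFD than Sham HFD (*Plin4* 1.53 and -1.18, *Fabp2* 1.25 and -0.75). *Lgals4*, the other gut marker tested, fell in Sham Chow vs. Sham HFD (-0.50 ± 0.13, adjusted p = 0.0106). *Amy2a5*, *Cdx2* and *Umod*, which mark pancreas, gut and kidney, were at 0 counts in all mice. The part of these shifts in the values above was not tested.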

How the data were processed

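Liver mRNA of 20 mice was sequenced from poly-T enriched, dUTP stranded libraries. The authors trimmed reads (Trimmomatic 0.36), aligned them to mm10 (HISAT2 2.1.0) and deposited raw gene counts from featureCounts 1.5.0-p3. The strand setting of the counting, its annotation release and its handling of multi-mapped reads are not given in the sources used here. Groups came from the labels. From the counts, CPM was computed with TMM factors, genes reaching a CPM of 2 in 3 or more mice were kept, and 1 model over all 20 mice was fitted with edgeR 4.0.16 (quasi-likelihood test, Benjamini-Hochberg adjustment). Scripts were tested on simulated data. RPKM used GENCODE M21 exon lengths and positions (GRCm38), and promoter windows were RefSeq's. DESeq2 1.42.0, limma-voom (limma 3.58.1), other scalings, filters, a replicate block, 2-group fits, summed paralogs and leaving out each mouse were alternatives. The members and lists were chosen with earlier results of these data known. Values by mouse are given for 23 genes. These are the genes the study names, *Nfe2l2*, *Keap1* and the usual reporters of NRF2 (*Nqo1*, *Gclc*, *Gclm*, *Txnrd1* and *Srxn1*). In each comparison the 5 passing members of smallest p-value were added. Other passing members are given by fold change (*Gstt2* and *Cat*, chosen after their values were seen, also by mouse in 2 groups), and each further list by its 3 genes of smallest p-value. P-values of the main model weigh a group difference against the spread between mice. That spread was estimated over all 4 groups, so scatter in any group bears on every comparison.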

Additional observations from a re-analysis of the deposited data

Results flagged for a closer look

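The diet change differed between RYGB and sham mice, by the interaction term of edgeR with adjusted p-values under 0.05, for 9 of the 41 genes. The log2 fold change of RYGB Chow vs. RYGB HFD less that of Sham Chow vs. Sham HFD was -3.55 for *Gsta1*, -3.02 for *Gstm3*, -1.83 for *Gstm2*, -1.81 for *Nqo1*, -1.50 for *Ephx1*, -1.28 for *Mgst3*, -1.21 for *Gstm1*, -0.93 for *Gstm4* and -0.86 for *Srxn1*. Of these, *Gsta1* did not pass when summed with *Gsta2*.

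A single mouse stood far from the other 4 of its group, by the gap to its nearest neighbour over the range of the group, in 6 of 92 groups of values tested over the 23 genes with values by mouse. Chance alone flags about 1 group in 20. RYGB Chow replicate 1 was low for *Gstp1* at 580 CPM. RYGB Chow replicate 5 was high for *Nqo1* at 12.6 CPM, and RYGB HFD replicate 4 was low for it at 1.83 CPM. Sham HFD replicate 3 was high for *Srxn1* at 82.1 CPM, Sham Chow replicate 2 was high for *Ephx1* at 667 CPM, and Sham HFD replicate 2 was low for *Nfe2l2* at 76.4 CPM.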

How the results depend on the processing

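No direction reversed. Of 561 called or named single values under other settings, 532 kept their side of the threshold, 25 lost it and 4 gained it, and without 1 mouse 1307 of 1400 kept it. The number of the 41 genes that passed with surgery on HFD, with diet in sham mice, with diet in RYGB mice and for the interaction was 22, 15, 18 and 9, was 23, 19, 21 and 11 with DESeq2, and 27, 17, 20 and 13 with library size alone, which shifted the median of all genes by 0.122 in Sham Chow vs. Sham HFD and by -0.125 for the interaction. Fits of 2 groups gave 12 in RYGB Chow vs. RYGB HFD. Deviations of same-numbered mice were weakly correlated (20 pairs, from -0.259 to 0.158, 5 over 0.1), so the mice were not paired by number. The own number correlated best in 4 pairs, among them replicates 2, 3 and 4 of Sham HFD vs. RYGB HFD. Such correlations cannot exclude a shared cage or processing order. The replicate block gave 20, 15, 16 and 9. Without 1 mouse the counts ran from 17 to 25, from 13 to 19, from 11 to 19 and from 9 to 11.

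Counts of the further lists were small and moved more. In RYGB Chow vs. RYGB HFD, fits of 2 groups gave 0 for other glutathione enzymes and for the thioredoxin group, 1 for NADPH supply and 6 for NRF2 targets. The thioredoxin group gave 1 there with library size alone, with no filter and with the replicate block, and precursor supply gave 2 with DESeq2 and 1 with no filter and with the block. In Sham HFD vs. RYGB HFD, library size alone gave 8 for NADPH supply, 3 for NRF2 partners and regulators and 1 for precursor supply, for which fits of 2 groups also gave 1. In Sham Chow vs. Sham HFD, fits of 2 groups gave 3 for partners and regulators. For the interaction, DESeq2 gave 1 for other glutathione enzymes, 2 for partners and regulators and 1 for precursor supply. Library size alone gave 5 for NADPH supply and 2 for partners and regulators, a CPM of at least 5 gave 1 for the latter, and no filter gave 1 for the thioredoxin group. The causes were not tested.

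Without 1 mouse, counts in Sham HFD vs. RYGB HFD ran from 1 to 4 for other glutathione enzymes, from 4 to 8 for partners and regulators and from 0 to 1 for precursor supply. In Sham Chow vs. Sham HFD they ran from 3 to 7 for NRF2 targets and from 3 to 6 for partners and regulators. In RYGB Chow vs. RYGB HFD they ran from 1 to 3 for other glutathione enzymes, from 0 to 3 for the thioredoxin group, from 1 to 3 for NADPH supply, from 6 to 11 for NRF2 targets and from 0 to 1 for precursor supply. For the interaction they ran from 0 to 1 for other glutathione enzymes, from 1 to 2 for the thioredoxin group, from 1 to 4 for NADPH supply, from 7 to 11 for NRF2 targets, from 0 to 3 for partners and regulators and from 0 to 1 for precursor supply.

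Depth limits *Gsta1* and *Gstp2*, the genes of lowest counts. Reads shared with near-identical copies limit *Gsta1*, *Gsta2*, *Gstp1*, *Gstp2* and *Gpx4*, and an overlapping gene on the opposite strand limits *Gss*. *Gstt3* shares 9.56% of its 150-base stretches with *Gm20441*, an overlapping gene on the same strand with a median of 0 counts. *Sod2* shares 7.9% of its stretches with *Rps6ka2* and *AC166110.4*.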
